A study of Rattus norvegicus with 12 samples.

Results

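The effect of rapamycin on c-myc null rat fibroblasts was read from 6 Illumina RatRef-12 arrays, 3 of HO15.19 cells given 50 nM rapamycin for 24 hr and 3 of HO15.19 cells given the DMSO vehicle (control), out of 12 arrays in all. HO15.19 (c-myc-/-) is a single line that was made from TGR-1 (c-myc+/+) fibroblasts by inactivating both c-myc alleles by homologous recombination. Both HO15.19 groups therefore lack the same gene, and they differ only in the drug. The line grows slowly, with a doubling time of 45 to 60 hr against 18 to 21.5 hr for TGR-1 cells, and all cells were kept in DMEM with 10% bovine calf serum. The other 6 arrays hold TGR-1 cells under the same treatments, and they entered the normalization and the estimate of the spread and show where the response of HO15.19 cells differed. Total RNA came from independent biological triplicates, as the methods state. Of the 22523 probes on the array, 10006 were tested, those whose detection p was below 0.05 on 3 or more of the 6 HO15.19 arrays, and 8405 of these were detected on all 6.

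Rapamycin binds FKBP12, and the complex inhibits mTOR complex 1 (mTORC1), a kinase that couples amino acid and growth factor supply to protein synthesis, nucleotide and serine synthesis, glycolysis and cell growth. One branch of this control runs through ATF4, a transcription factor for genes of amino acid synthesis, amino acid transport and tRNA charging. c-Myc, the factor missing here, controls many of the same growth genes, so the question put to these cells was which rapamycin-sensitive genes remain sensitive without it.

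The Myc probe was checked first. Its normalized log2 intensity was 8.19, 7.95 and 8.10 on the HO15.19 rapamycin arrays and 7.69, 7.94 and 7.88 on the HO15.19 control arrays. In TGR-1 cells it averaged 9.61 ± 0.13 with rapamycin and 9.03 ± 0.05 without (SD, n = 3 each). The probe was thus lower in both HO15.19 groups than in either TGR-1 group but above background on every array, and the sources used here do not place it relative to the targeted part of the gene. Its rapamycin change in HO15.19 cells, 0.25 (here and throughout, the rapamycin mean minus the control mean of log2 intensities), did not pass the test (adjusted p = 0.235 from limma).

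The mean raw signal of the HO15.19 arrays ran from 255 to 405 with rapamycin and from 261 to 369 in control. Between 9786 and 10472 probes were detected with rapamycin and between 9657 and 9869 in control, and arrays of a group correlated at 0.988 or more. The first principal component of the 6 arrays held 38.0% of the variance, with the rapamycin arrays at 9.48, 8.68 and 18.1 and the control arrays at −12.1, −15.5 and −8.67. The number of arrays limits the precision, since on simulated data of the same size 8% of 1.3-fold, 62% of 1.5-fold, 84% of 2-fold and 100% of 3-fold changes were called.

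Results showed 606 rapamycin-sensitive gene features in HO15.19 cells, 6.06% of those tested, with 293 (2.93%) higher and 313 (3.13%) lower with the drug. To be called, a gene feature needed a 1.2-fold change or more, an unadjusted p no higher than 0.01 and, after Benjamini-Hochberg adjustment, a p below 0.05, in a limma fit of a mean per group over all 12 arrays. The count was 319 without HO15.19 control replicate 2, 332 without control replicate 1, 403 without rapamycin replicate 1 and 237 when the 6 HO15.19 arrays were fitted alone. The split of the calls depended on the scaling, since 18 of 51 calls (35.3%) were higher with each array centred on its own median over all probes, against 48.3% here. The change was at least 1.5-fold for 250 (2.5%), 129 (1.29%) higher and 121 (1.21%) lower, and the median size among the called features was 1.46-fold. Groups did not overlap on the 6 arrays for 603 of the 606, against 22.1% of all tested probes, and the median change over all tested probes was −0.0044 on the log2 scale. Gene names were given only for probes in the authors' tables of changed probes, which cover 1727 tested probes and 562 of the called ones, and the other 44 called features (23 higher and 21 lower) have no name here. Of the named probes 32.5% were called, 15.6% higher and 16.9% lower, and these shares are the ones to set beside a count in a gene list. Changes of at least 1.5-fold were called for 14.4% of them (7.47% higher and 6.95% lower), 64.2% did not overlap between the groups, and 70.2% had an unadjusted p under 0.05, against 20% of all tested probes. In TGR-1 cells 4.31% of the tested probes were called (2.74% higher and 1.57% lower), and 23.5% of the named ones (8.34% lower). Since the names were chosen on these same arrays, such counts are not independent evidence of a list's direction. A list member is measured here only if it had such a name and a tested probe. That held for 51 of 88 listed mitosis genes, 27 of 64 replication genes and 12 of 81 cytosolic ribosomal proteins. The counts below therefore describe a part of each list. Only 5 of 15 fibroblast markers had a name and a value (Col1a1, Col3a1, Fn1, Lum and P4hb), with Lum higher and Col1a1 and P4hb lower with rapamycin. Of the markers of 8 other cell types a single gene, the monocyte receptor Cd14, was measured (0.47, adjusted p = 0.053), so the named probes allow no check for other cells. The call of Col1a1 was lost without any 1 of 4 HO15.19 arrays, that of P4hb without any 1 of 3.

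**Figure D1:**
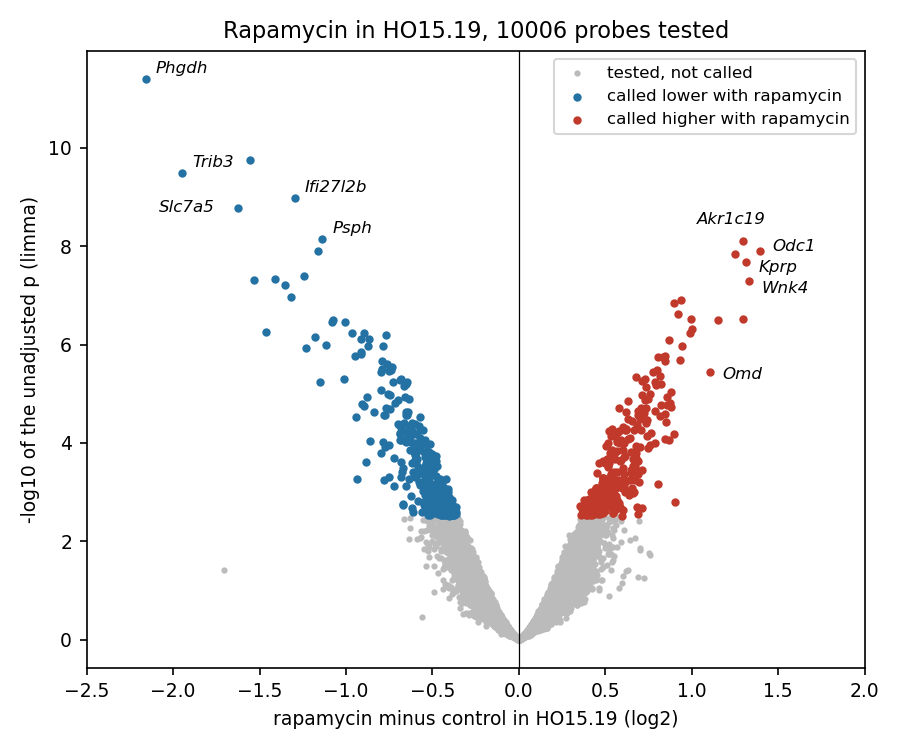
Change with rapamycin (rapamycin minus control, log2, horizontal axis) against the −log10 of the unadjusted p from limma (vertical axis) for each of the 10006 probes tested in HO15.19 cells. Red points are the 293 called higher, blue points the 313 called lower and grey points those not called, and Phgdh at −2.16 lies farthest to the left among the called.

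Among the genes that fell most were enzymes of serine and one-carbon metabolism. Phgdh, which draws a glycolytic intermediate into serine synthesis, had 4.53, 4.80 and 4.51 on the rapamycin arrays and 6.85, 6.79 and 6.68 on the control arrays. It was detected on all 3 control arrays, through which it passed the filter, and on no rapamycin array, so that its level was at least 3.59-fold lower with the drug. Its direction was fixed by that filter, so the fitted change of −2.16 is a description. Psph, which completes serine synthesis, had 8.74, 8.74 and 8.78 with rapamycin and 10.01, 9.93 and 9.74 in control, a fall of 1.14 (standard error 0.10, adjusted p = 1.12e-05). For Psph the 3 rapamycin arrays lay well below the 3 control arrays, with less than 0.4 between arrays of a group. Phgdh was separated likewise, but there the filter fixed it, so it adds no support. Shmt2, the mitochondrial enzyme that splits serine into glycine and a one-carbon unit, fell by 1.15. A pair of probes whose listed definitions are similar to the bifunctional mitochondrial methylenetetrahydrofolate dehydrogenase, the next step of one-carbon metabolism, fell by 1.56 (LOC684490) and 1.53 (RGD1564040), and they may read closely similar transcripts. Of the 5 measured members of the serine and one-carbon list 3 fell, Phgdh among them, with a list median of −1.14. Mthfd1l (−0.40, adjusted p = 0.0652 in limma) and Gcsh (0.10) did not pass the test.

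Of 43 genes listed as targets of ATF4, 24 were measured, and most of these fell. Among the 24, 18 were called, all lower and Phgdh among them, and the other 6 had negative values. The 24 had a median of −0.79 against −0.0044 over all tested probes. Trib3, a stress-induced pseudokinase, had 5.71, 6.17 and 6.26 with rapamycin and 8.17, 8.05 and 7.78 in control, a 3.87-fold fall (adjusted p = 1.09e-06). Slc7a5, the light chain of the large neutral amino acid transporter, had 7.42, 7.46 and 7.26 with rapamycin and 8.84, 9.17 and 9.02 in control, and it fell 3.09-fold (adjusted p = 3.37e-06). In both genes every rapamycin array lay more than 1 log2 unit below every control array. Both were chosen among the largest falls without overlap, so the lack of overlap itself adds no support. The heavy chain of that transporter, Slc3a2, fell by 0.79, and asparagine synthetase, Asns, by 1.32. Among the transcription factors of the pathway, Atf5 fell by 1.46, Ddit3, which encodes CHOP, by 0.87, and Atf4 itself by 0.69 (10.01 ± 0.21 with rapamycin and 10.69 ± 0.12 in control, SD, n = 3 each, adjusted p = 0.00419). Others in the list that fell were Pck2, the mitochondrial enzyme that makes phosphoenolpyruvate (1.08), and the mTORC1 inhibitor Ddit4 (0.65). In TGR-1 cells 12 of the 24 fell, with a median of −0.51. The test of the difference between the lines was passed by Chac1, a glutathione-degrading enzyme, which had 5.06, 5.51 and 5.78 with rapamycin and 6.51, 6.71 and 6.83 in control in HO15.19 cells (a fall of 1.23) and 0.06 as its change in TGR-1 cells, while the Atf4 difference of −0.62 was not past it (adjusted p = 0.227).

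**Figure D2:**
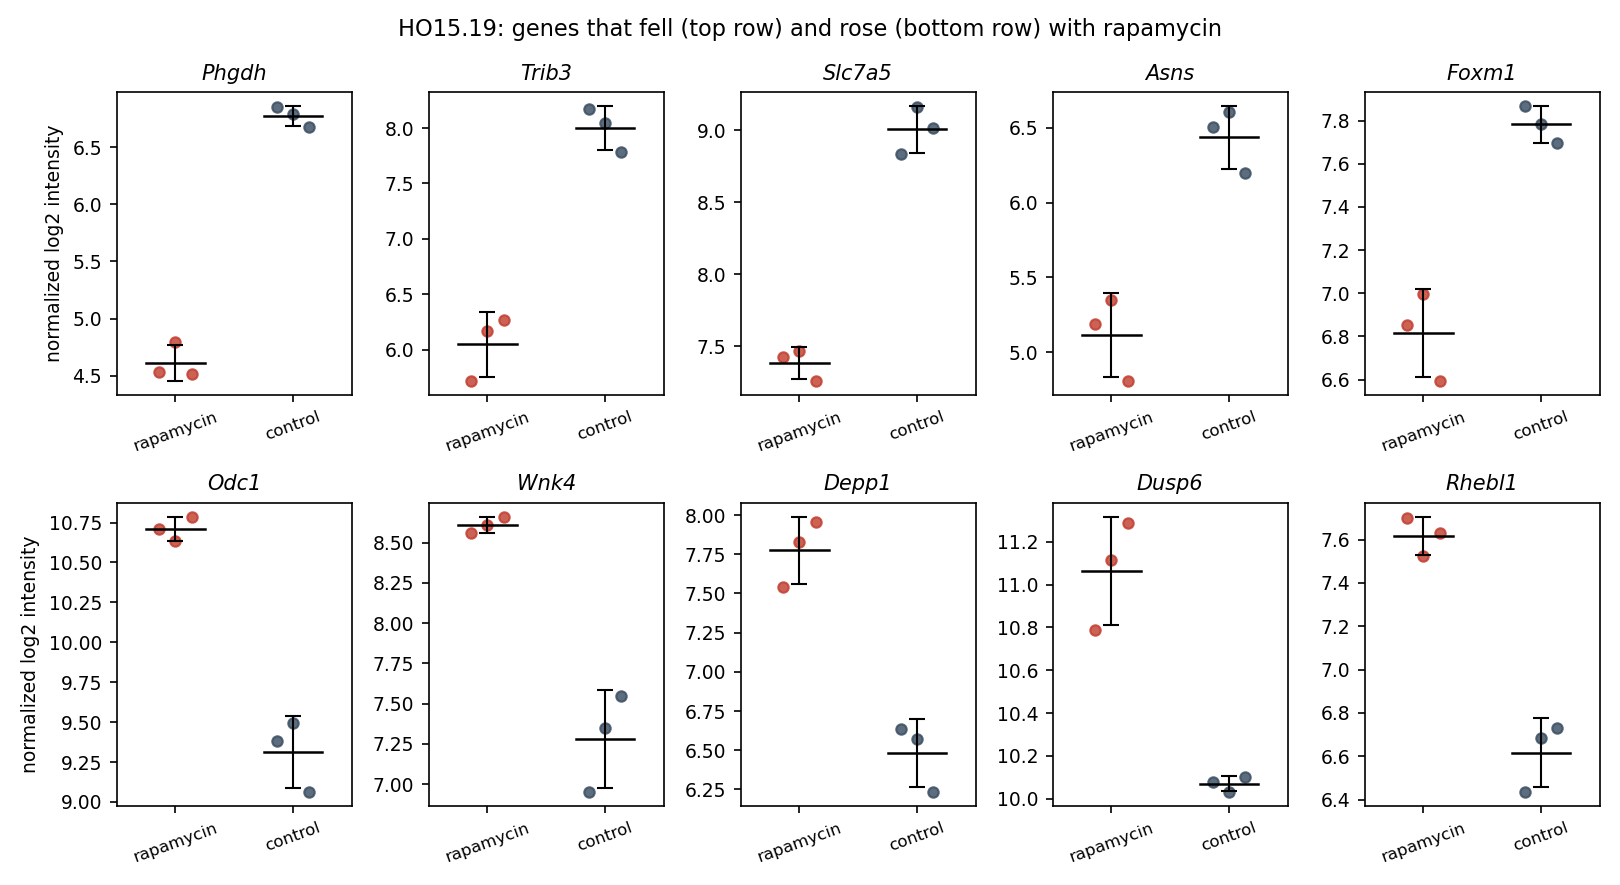
Normalized log2 intensity (vertical axes, a separate scale for each gene) of 10 genes on each HO15.19 array, with rapamycin in red on the left and control in slate on the right, and the mean and SD of 3 arrays in black. Phgdh, Trib3, Slc7a5, Asns and Foxm1 sit lower on all 3 rapamycin arrays, and Odc1, Wnk4, Depp1, Dusp6 and Rhebl1 sit higher on all 3. For all but Foxm1 this lack of overlap was a condition of their choice.

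Aminoacyl-tRNA synthetases, the enzymes that charge tRNAs with their amino acids, were lower for 13 of 18 measured members, with a median of −0.75. Cars1, for cysteine, fell by 1.35 (5.75 ± 0.36 with rapamycin and 7.11 ± 0.11 in control, SD, n = 3 each, adjusted p = 3.87e-05). Mars1, for methionine, fell by 1.12, Yars1, for tyrosine, by 1.01, Vars1, for valine, by 0.95, and Aars1, for alanine, by 0.89. Vars1 was tight within each group, at 10.29, 10.26 and 10.25 with rapamycin and 11.09, 11.14 and 11.42 in control. The 5 members that did not pass were Farsb, Eef1e1, Rars1, Aimp1 and the mitochondrial enzyme Yars2, none of them below −0.25. Tars1, for threonine, had 2 probes, of which the brighter fell by 0.78 and the other was not called at −0.33. In TGR-1 cells 9 of the 18 fell, with a median of −0.48, and no member passed the test of the difference in limma (7 at an unadjusted p under 0.05).

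The promoters of these genes were then read. The letters TGATGNAA, part of the element that ATF4 and C/EBP proteins bind together, were searched on both strands of RefSeq promoters (build GRCr8, 250 bases before to 50 after each start). They were found in 3.82% of 27457 promoters in all and 2.98% of those of named tested genes, in 6 of 18 promoters of the called ATF4 targets and in 7 of 12 promoters of the called tRNA synthetases. Over all genes called lower the letters stood in 18 of 227 promoters (7.93%), and over those called higher in 5 of 188. The ATF4 list was drawn from general knowledge of its targets, so the matches there are not independent evidence. Sequences are given for Trib3, the largest fall among matching genes, Chac1, whose change differed between the lines, and the synthetases Cars1 and Aars1, each 5′ to 3′ along the gene with the matching letters in capitals. Every match shown lies on the strand opposite the gene, so the capitals read as the reverse complement. They lie at chr3:161275484-161275783 (minus strand), chr3:126795881-126796180 (plus strand), chr1:208225320-208225619 (minus strand) and chr19:55908232-55908531 (plus strand).
Trib3: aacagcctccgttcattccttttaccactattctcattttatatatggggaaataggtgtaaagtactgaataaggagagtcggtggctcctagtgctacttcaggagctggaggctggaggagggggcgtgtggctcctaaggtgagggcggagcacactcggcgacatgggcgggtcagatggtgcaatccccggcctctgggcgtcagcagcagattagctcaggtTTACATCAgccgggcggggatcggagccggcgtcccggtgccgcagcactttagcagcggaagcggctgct
Chac1: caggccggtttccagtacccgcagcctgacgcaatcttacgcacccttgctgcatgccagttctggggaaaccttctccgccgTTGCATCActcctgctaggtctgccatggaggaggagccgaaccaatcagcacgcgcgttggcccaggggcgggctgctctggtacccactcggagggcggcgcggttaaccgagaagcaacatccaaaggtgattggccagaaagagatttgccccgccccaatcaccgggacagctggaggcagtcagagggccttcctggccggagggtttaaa
Cars1: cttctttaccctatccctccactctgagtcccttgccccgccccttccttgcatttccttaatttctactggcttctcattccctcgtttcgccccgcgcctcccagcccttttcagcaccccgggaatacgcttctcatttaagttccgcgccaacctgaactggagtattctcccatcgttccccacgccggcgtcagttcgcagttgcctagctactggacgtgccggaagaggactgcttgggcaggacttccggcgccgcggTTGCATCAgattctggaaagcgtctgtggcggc
Aars1: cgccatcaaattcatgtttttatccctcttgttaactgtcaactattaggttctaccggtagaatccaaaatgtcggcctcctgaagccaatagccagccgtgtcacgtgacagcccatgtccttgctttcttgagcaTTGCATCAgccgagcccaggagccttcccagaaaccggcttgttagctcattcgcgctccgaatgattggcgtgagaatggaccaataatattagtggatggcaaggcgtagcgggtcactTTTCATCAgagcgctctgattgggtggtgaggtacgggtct
The match begins 21 bases before the start in Trib3, 167 before it in Chac1 and 18 after it in Cars1, and Aars1 holds 2 matches, 112 before and 10 after the start. The promoters of Phgdh, Slc7a5 and Asns held no match in these windows.

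Genes of mitosis and chromosome segregation were lower for 37 of 51 measured members, with a median of −0.53, and the other 14 had negative values. In TGR-1 cells 1 of the 51 was called, the phosphatase Cdc25b (−0.56), and the median was 0.00. However, 50 of the 51 were named in the authors' HO15.19 table and 3 in the TGR-1 table. Nearly all were thus chosen for a change in HO15.19 cells, and the contrast is a description. In bulk RNA, fewer cells in mitosis and less of these transcripts per cell cannot be told apart. From labelled thymidine, with data not shown, the paper reports that rapamycin did not inhibit growth in either line, by criteria set in hepatic cells. Cell cycle state was not tested here. Foxm1, the transcription factor of the G2 and M phases, averaged 6.82 ± 0.21 with rapamycin and 7.78 ± 0.09 in control (SD, n = 3 each, a fall of 0.97, adjusted p = 0.000188). Cyclin A2, Ccna2, had 8.83, 8.92 and 8.52 with rapamycin and 9.53, 9.83 and 9.65 in control, and Ube2c, the ubiquitin-conjugating enzyme of the anaphase-promoting complex, had 8.95, 9.02 and 8.59 with rapamycin and 9.73, 9.76 and 9.81 in control. Both fell 1.88-fold, and no rapamycin array of either reached a control array. The mitotic kinases Plk1 (−0.76), Cdk1 (−0.69) and Aurkb (−0.48) and the kinesins Kif20a (−0.65) and Kif23 (−0.51) fell, as did the condensin subunits Ncapd2 (−0.92) and Ncapg (−0.62). Those that missed the threshold included the centromere protein Cenpe (−0.53, adjusted p = 0.0529) and the separase Espl1 (−0.49, adjusted p = 0.0677).

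DNA replication genes moved likewise, with 18 of 27 lower, a median of −0.55 and negative values for the other 9. Gins1, of the replicative helicase, had 8.01, 8.43 and 7.76 with rapamycin and 8.88, 8.83 and 9.22 in control (a fall of 0.91, adjusted p = 0.00176). Pole2, of DNA polymerase epsilon, fell by 0.75, the initiation factor Mcm10 by 0.70 and the helicase subunit Mcm2 by 0.67. For Mcm2 the rapamycin arrays were spread, at 8.49, 8.98 and 8.17, against 9.19, 9.19 and 9.26 in control. In TGR-1 cells a single member of this list was called, E2f1, which was higher there (0.39) and had −0.37 in HO15.19 cells (adjusted p = 0.0506). Here too 26 of the 27 were named in the HO15.19 table and 4 in the TGR-1 table. Of the DNA repair genes 7 of 11 fell, among them Fancb of the Fanconi pathway (0.63) and the histone variant H2ax (0.37), and of the nucleotide synthesis genes only Rrm1, the large subunit of ribonucleotide reductase, was called (−0.54) among 10.

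The counts for these lists varied with the arrays and with the scaling. Without HO15.19 control replicate 1 the replication count was 10 and the repair count 2, and the repair count was 1 without control replicate 2 or rapamycin replicate 1, 4 without rapamycin replicate 2 and 2 without rapamycin replicate 3. The call of H2ax was lost without any 1 of the 6 HO15.19 arrays, and those of Mcm2 and Rrm1 without any 1 of 5. When arrays were scaled to their median over all probes instead of by quantiles, the mitosis count was 3 and the replication and repair counts 0, and with a fit of the 6 HO15.19 arrays alone the 3 counts were 17, 10 and 1. Under the median scaling 11 of the ATF4 targets and 6 of the tRNA synthetases were called.

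**Figure D3:**
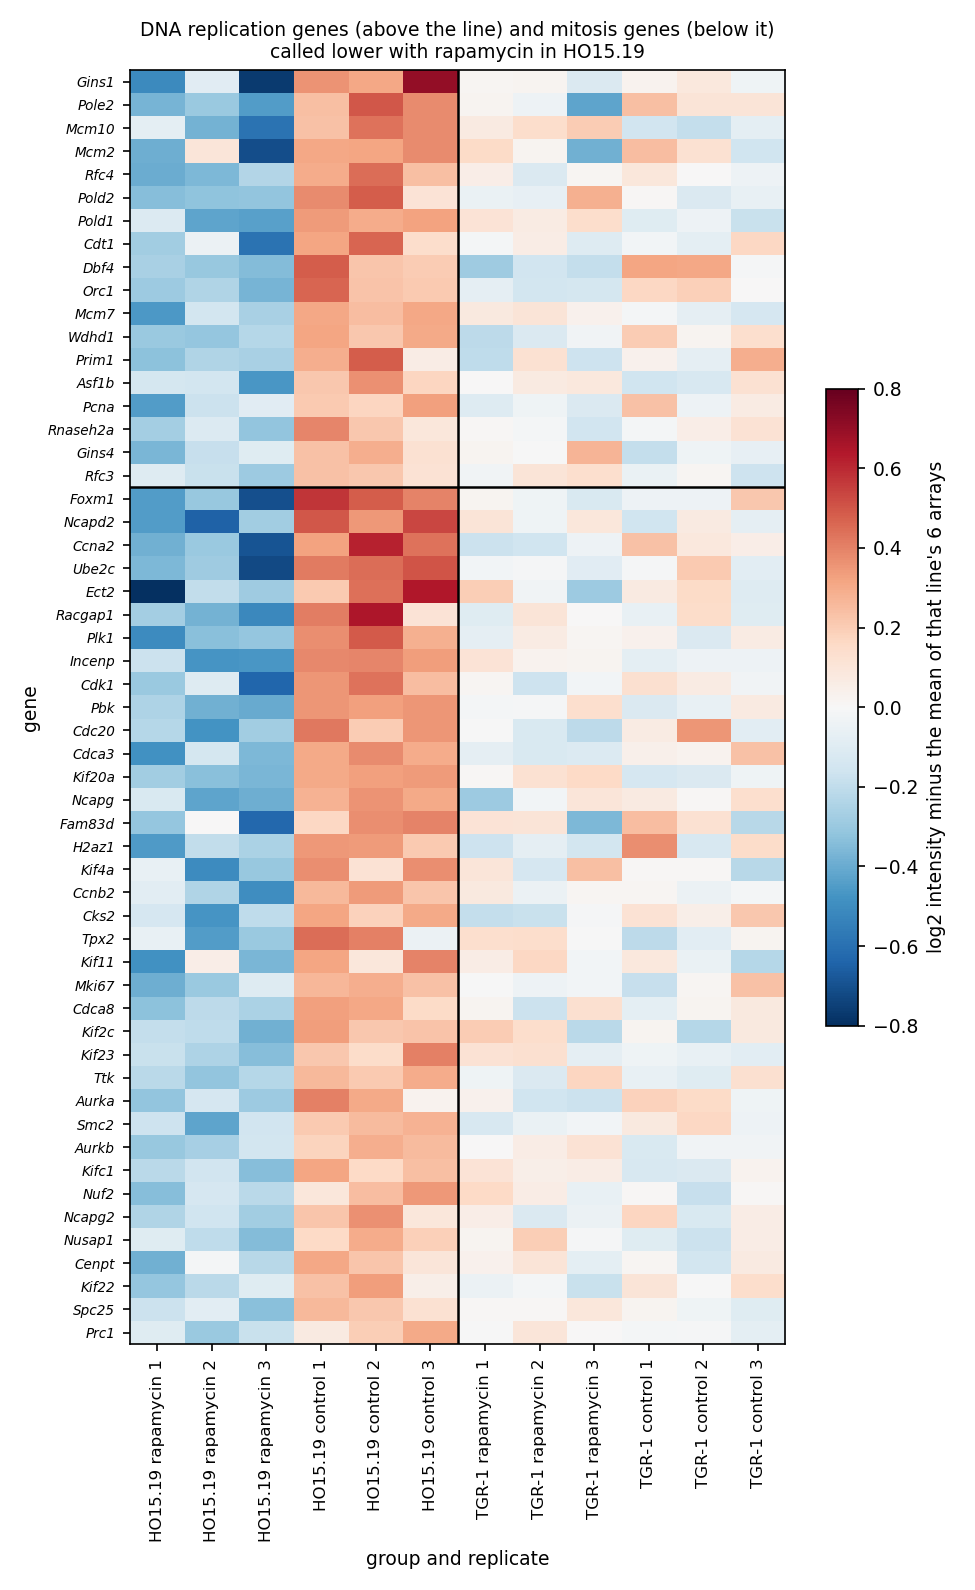
Log2 intensity minus the mean of that line's 6 arrays (colour, red above and blue below the mean) for the 18 DNA replication and 37 mitosis genes called lower with rapamycin in HO15.19 cells (rows), on each array (columns, HO15.19 rapamycin and control on the left, TGR-1 rapamycin and control on the right). In HO15.19 cells the rapamycin columns are blue and the control columns red for almost every gene, which is what chose the rows, and the TGR-1 columns are pale. Nearly all genes of these lists were named for a change in HO15.19 cells, so the pale columns are not independent evidence of a difference.

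Many mitotic promoters carry a cell cycle homology region, a short element bound by the complexes that repress these genes in resting cells and activate them in G2. Its letters, TTTGAA or TTCGAA, were present on either strand in 22 of 28 promoters of the mitosis genes that fell and in 6 of 16 of the replication genes that fell, against 19.5% of all promoters of the same length and 17.6% of those of named tested genes. A CCAAT box stood in 24 of the 28 and in 37.7% of all promoters (40.4% of those of named tested genes). The E-box CACGTG, which c-Myc binds, stood in 1 of the 28 and in 6.65% of all (11.1% of those of named tested genes). Its scarcity in the mitosis list did not extend to all genes that fell. The E-box stood in 4 of 12 promoters of the called tRNA synthetases and 3 of 18 of the called ATF4 targets. Among genes that c-Myc induces and that fell it stood in 3 of 9, and in 1 of 16 of the replication genes that fell. Over all genes called lower it stood in 27 of 227 promoters, and over those called higher in 20 of 188. The promoters of Plk1, Cdk1, Cdc20 (the activator of the anaphase-promoting complex) and Ncapd2 are shown as examples, 5′ to 3′ along the gene, with TTTGAA in capitals where it occurs. They lie at chr1:186147408-186147707 (plus strand), chr20:19265043-19265342 (plus strand), chr5:137255750-137256049 (minus strand) and chr4:159677889-159678188 (minus strand) of GRCr8.
Plk1: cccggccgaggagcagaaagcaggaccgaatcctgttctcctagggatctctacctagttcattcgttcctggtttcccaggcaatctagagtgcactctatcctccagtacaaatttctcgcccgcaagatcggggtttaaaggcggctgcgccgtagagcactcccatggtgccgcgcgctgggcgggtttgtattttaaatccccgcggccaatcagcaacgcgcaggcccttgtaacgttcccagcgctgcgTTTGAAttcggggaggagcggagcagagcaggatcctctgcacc
Cdk1: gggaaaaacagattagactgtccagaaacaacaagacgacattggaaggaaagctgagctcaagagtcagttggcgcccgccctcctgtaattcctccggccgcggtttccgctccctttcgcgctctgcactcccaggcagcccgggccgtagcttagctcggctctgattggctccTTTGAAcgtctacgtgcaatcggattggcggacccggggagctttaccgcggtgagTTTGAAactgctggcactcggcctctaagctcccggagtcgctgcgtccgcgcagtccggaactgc
Cdc20: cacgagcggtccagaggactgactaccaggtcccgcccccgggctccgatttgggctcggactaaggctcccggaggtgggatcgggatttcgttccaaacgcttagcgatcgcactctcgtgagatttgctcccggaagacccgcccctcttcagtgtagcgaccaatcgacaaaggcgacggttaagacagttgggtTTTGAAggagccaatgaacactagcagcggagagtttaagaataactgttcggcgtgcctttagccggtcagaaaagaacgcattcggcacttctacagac
Ncapd2: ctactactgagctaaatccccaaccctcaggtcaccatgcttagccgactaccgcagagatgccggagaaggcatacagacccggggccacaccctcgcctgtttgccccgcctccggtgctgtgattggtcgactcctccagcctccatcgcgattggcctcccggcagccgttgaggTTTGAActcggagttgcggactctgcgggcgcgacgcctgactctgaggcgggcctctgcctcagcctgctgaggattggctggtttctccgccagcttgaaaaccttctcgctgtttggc
The letters begin 51 bases before the start in Cdc20, 71 before it in Ncapd2, 72 and 16 before it in Cdk1, and 7 after it in Plk1. A match describes the window alone and was not tied to any binding.

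Glycolytic genes were lower for 7 of 11 measured members, with a median of −0.58 against −0.31 in TGR-1 cells. Pgk1, phosphoglycerate kinase, had 11.93, 11.77 and 11.89 with rapamycin and 12.50, 12.43 and 12.51 in control (a 1.53-fold fall, adjusted p = 0.0038). Tpi1, triose phosphate isomerase, had 12.09, 12.10 and 12.03 with rapamycin and 12.73, 12.80 and 12.64 in control, and it fell by 0.65. The phosphofructokinases Pfkp (−0.68) and Pfkl (−0.58) and lactate dehydrogenase A, Ldha (−0.50), fell too, although for Ldha the highest rapamycin array met the lowest control array (11.86 each). Aldoa, aldolase A, had −0.15 in HO15.19 cells and fell by 0.60 in TGR-1 cells, a difference of 0.44 that did not pass its test (adjusted p = 0.304). The count of 7 was 2 without HO15.19 control replicate 1 and 4 without control replicate 2 or rapamycin replicate 1. Among the genes given here, the calls of Ldha, Pfkl and Pfkp were lost without HO15.19 control replicate 1.

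Among genes that c-Myc is known to induce, 10 of 29 measured fell and 1 rose, against 16.9% and 15.6% of all named probes. The list median was −0.31 in these cells without c-Myc. Several of those that fell belong to lists above (Shmt2, Pgk1, Ldha, Cdc20, Mcm7), and others were Cdca7, a cell division gene (−0.70), and the nucleolar proteins Nop56 (−0.59) and Fbl (−0.45). The one that rose was Odc1, ornithine decarboxylase, the first enzyme of polyamine synthesis, with 10.71, 10.63 and 10.79 on the rapamycin arrays and 9.38, 9.50 and 9.06 on the control arrays. This was the largest rise of all named probes (1.40, 2.63-fold, adjusted p = 1.42e-05), and it was 0.56 in TGR-1 cells (difference 0.83, adjusted p = 0.102). Other polyamine enzymes went separate ways. Sat1, which acetylates polyamines for breakdown and export, rose by 0.74, and Srm, spermidine synthase, fell by 0.68. Of 16 genes that c-Myc represses, 4 rose and Col1a1 fell, against 15.6% higher and 16.9% lower among all named probes. The list median was 0.09, with negative values for 6. In TGR-1 cells 7 of the 16 rose and 2 fell, with a median of 0.44. However, 12 of the 16 were named in the authors' TGR-1 table and 9 in the HO15.19 table. The names were thus chosen more often for a change in TGR-1 cells, and the contrast is a description. No member of this list passed the test of the difference between the lines. Rises in HO15.19 cells included the matricellular protein Ccn1 (0.68). Another was Mxd4, a repressor that competes with Myc for Max (0.56, adjusted p = 0.0291 in limma). Mxd4 had 6.96 ± 0.25 with rapamycin and 6.40 ± 0.12 in control (SD, n = 3 each). The change of Mxd4 was called without control replicate 3 or rapamycin replicate 3 but not without any 1 of the other 4 HO15.19 arrays. The count of 5 changed c-Myc-repressed genes was 3 without control replicate 1 or rapamycin replicate 2 and 2 without control replicate 2 or rapamycin replicate 1, and the calls of Nop56 and Fbl were lost without control replicate 2.

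**Figure D4:**
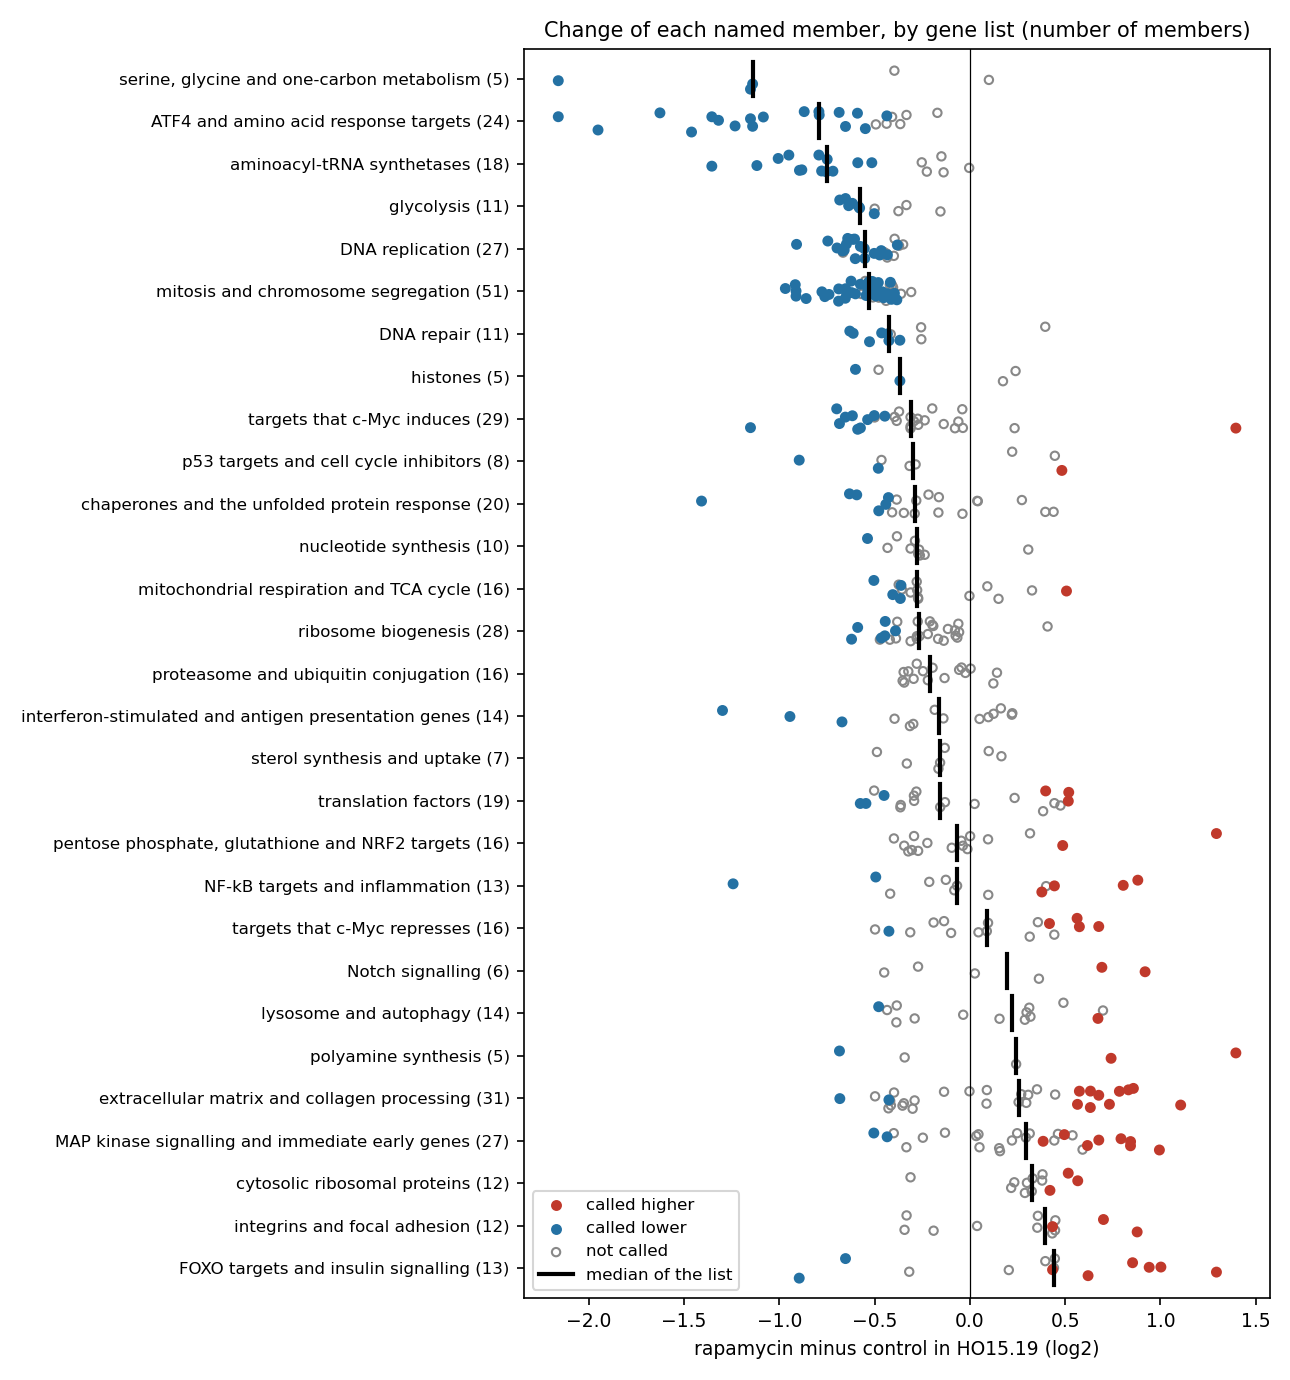
Change with rapamycin in HO15.19 cells (log2, horizontal axis) of each named member of the 29 gene lists with at least 5 measured members, ordered by the median (black bar), with the number of members in brackets. Blue and red points were called lower and higher and open points were not called. The serine, ATF4 and tRNA synthetase lists sit farthest below 0, and the FOXO and insulin list has the highest median at 0.44.

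Of 12 measured cytosolic ribosomal proteins 3 rose, Rps26 (0.57), Rpl31 (0.52) and Rpl24 (0.42), and 11 of the 12 had positive values, with a median of 0.33 against 0.09 in TGR-1 cells. The share to set beside such counts is the 15.6% of all named probes called higher. However, 10 of the 12 were named in the authors' HO15.19 table and 3 in the TGR-1 table. Rps26 had 12.89, 12.85 and 13.13 with rapamycin and 12.40, 12.39 and 12.37 in control (adjusted p = 0.00727). A wider set was taken after these values were seen, from all 69 named probes defined as a ribosomal protein or as similar to one, and 66 of these had positive values, 28 were called higher and 2 lower (Mrto4, below, is 1 of these by its definition), with a median of 0.42 against 0.12 in TGR-1 cells. Many of these definitions are predicted copies of the same proteins, whose probes can read the same transcript, so the 69 are not separate measurements. Their names too were chosen on these same arrays, so both contrasts with TGR-1 cells are descriptions. Of the genes that build ribosomes 6 of 28 were lower, a share near the 16.9% of all named probes, with a median of −0.27 and 21 of the 28 named from the TGR-1 table, among them Rrp9 (−0.62), Nop56 (−0.59) and the ribosome assembly factor Mrto4 (−0.46). Of 19 translation factors 3 were higher and 3 lower, close to the shares of all named probes (15.6% and 16.9%). The initiation factor subunits Eif2s2 (−0.58), Eif3c (−0.55) and Eif2b3 (−0.45) fell, and Eif3f (0.52), Eif3h (0.40) and the translation inhibitor Pdcd4 (0.52) rose. The ribosome biogenesis count was 2 without HO15.19 control replicate 1 and 1 without control replicate 2, and the count of 6 changed translation factors was 3 without control replicate 1, control replicate 2 or rapamycin replicate 1. The calls of Rpl24, Mrto4, Eif3c, Eif2b3, Eif3h and Pdcd4 were each lost without at least 2 of the 6 HO15.19 arrays.

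Genes that rose most were of varied kinds. Wnk4, a kinase that controls ion transport, had 8.56, 8.61 and 8.66 with rapamycin and 6.95, 7.35 and 7.55 in control (2.51-fold, adjusted p = 3.38e-05). Akr1c19, an aldo-keto reductase, had 8.52, 8.78 and 8.65 with rapamycin and 7.37, 7.18 and 7.51 in control (2.45-fold), with the same change of 1.29 in TGR-1 cells. Sts, steroid sulfatase, had 6.29, 6.29 and 6.22 with rapamycin and 5.26, 4.80 and 4.99 in control, and 2 of the 3 control arrays detected it. Zfp36l1, which binds AU-rich elements and speeds mRNA decay, rose by 1.15, and Rarres2, the secreted adipokine chemerin, by 0.99. In all these genes the rapamycin arrays lay above every control array, which was a condition for choosing them and adds no support.

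Targets of FOXO factors and of insulin signalling gave 6 rises and 2 falls among 13 measured, with a median of 0.44. Depp1, a FOXO target, had 7.54, 7.83 and 7.96 with rapamycin and 6.64, 6.57 and 6.23 in control (2.45-fold, adjusted p = 0.000133). Rhebl1, a small GTPase close to the mTORC1 activator Rheb, had 7.70, 7.53 and 7.63 with rapamycin and 6.43, 6.68 and 6.73 in control, a rise of 1.00. Trib2, a pseudokinase, rose by 0.94, the kinase Sgk1 by 0.85 and the insulin-like growth factor receptor Igf1r by 0.43. Sesn3, a sestrin that restrains mTORC1, was among those that fell (0.90), with 5.36, 5.53 and 6.01 under rapamycin and 6.56, 6.42 and 6.60 in control. In the autophagy and lysosome list Ulk1, the kinase that starts autophagy, rose by 0.67 and Ctsb, cathepsin B, fell by 0.48 among 14, and Ulk1 was not called without rapamycin replicate 1. The call of Igf1r was lost without any 1 of 4 HO15.19 arrays.

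Of 27 genes of MAP kinase signalling and the immediate early response 8 rose and 2 fell, with a median of 0.29. Among all named probes 15.6% were called higher and 16.9% lower. Dusp6, a MAP kinase phosphatase, had 10.79, 11.12 and 11.29 with rapamycin and 10.08, 10.03 and 10.10 in control (a rise of 0.99, adjusted p = 0.000133). Dusp1, another MAP kinase phosphatase, rose by 0.84. The fibroblast growth factors Fgf7 and Fgf10 rose by 0.84 and 0.79, and Bdnf, a neurotrophin, by 0.68. Fgf10 had 6.01, 5.95 and 5.76 with rapamycin and 5.10, 4.98 and 5.25 in control, and it was not detected on any TGR-1 array. The count of 10 was 6 without HO15.19 control replicate 1 or rapamycin replicate 3. In TGR-1 cells 12 of the 27 rose and 0 fell, with a median of 0.40.

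The extracellular matrix list held 10 rises and 2 falls among 31 genes, against 15.6% higher and 16.9% lower among all named probes. Omd, osteomodulin, a small leucine-rich proteoglycan, had 6.84, 7.23 and 6.86 with rapamycin and 5.86, 5.72 and 6.02 in control (2.15-fold, adjusted p = 0.000621). Its relatives asporin, Aspn (0.73), and lumican, Lum (0.57), rose, and so did the fibril-associated collagen Col14a1 (0.83), the matrix Gla protein Mgp (0.78), the matricellular protein Ccn5 (0.86) and the protease Adamts1 (0.63). The fibrillar collagen Col1a1 (12.06 ± 0.10 with rapamycin and 12.49 ± 0.10 in control, SD, n = 3 each) and Col12a1 (5.83 ± 0.03 with rapamycin and 6.52 ± 0.04 in control) fell, by 0.42 and 0.68. Col3a1 (−0.50, adjusted p = 0.0822) and Fn1, fibronectin (0.09), did not pass. Mgp and Lum were not detected on any TGR-1 array, and their changes of 0.78 and 0.57 can be given for HO15.19 cells alone. Of 12 integrin and focal adhesion genes 3 rose, the integrin Itgb4 (0.88), the caveolar coat protein Cav1 (0.70) and Igf1r. The second, dimmer probe of Cav1 was not called, at 0.44. In TGR-1 cells 12 of the 31 matrix genes rose and 2 fell, with a median of 0.28 against 0.26 in HO15.19 cells. Of the 12 integrin and focal adhesion genes 4 rose and 1 fell in TGR-1 cells.

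Of 14 interferon genes 3 fell, and of 13 NF-kB targets 4 rose and 2 fell, against 15.6% of all named probes higher and 16.9% lower. Ifi27l2b, of an interferon-induced family, had 9.80, 9.90 and 9.64 with rapamycin and 10.99, 11.08 and 11.16 in control (2.46-fold lower, adjusted p = 2.61e-06). Casp4, listed as the inflammatory caspase 11, fell 2.37-fold, and Oasl (−0.94) and the immunoproteasome subunit Psmb8 (−0.67) fell. Among the NF-kB targets the inducible cyclooxygenase Ptgs2 rose by 0.88 (10.94, 10.95 and 10.69 with rapamycin and 9.86, 9.96 and 10.11 in control). Within the chaperone and unfolded protein response list 6 of 20 fell, led by Creb3l1, a membrane-bound factor for collagen secretion (1.41), and including the endoplasmic reticulum chaperone Hspa5, known as BiP (0.43). Subunits of gamma-secretase, which releases the Notch intracellular domain, rose for Psenen (11.04, 11.21 and 11.13 with rapamycin and 10.19, 10.21 and 10.21 in control, a rise of 0.92) and Psen2 (0.69), with Ncstn at −0.45 (adjusted p = 0.0803). The call of Psen2 was lost without any 1 of 4 HO15.19 arrays, that of Hspa5 likewise, and that of Psmb8 without control replicate 2. The 6 changed NF-kB targets were 3 without control replicate 1, control replicate 2, rapamycin replicate 1 or rapamycin replicate 2, and the 6 chaperone genes 3 and 2 without control replicates 1 and 2. Of 16 genes of respiration and the TCA cycle 4 fell and Idh1, the cytosolic isocitrate dehydrogenase, rose, and these 5 calls were 1 to 3 with any HO15.19 array left out, with 1 without control replicate 2 or rapamycin replicate 3.

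Lists without a call in limma were sterol synthesis (7 measured, 2 at an unadjusted p under 0.05), fatty acid synthesis (3 measured, 1) and the proteasome (16 measured, 5). The unmoderated test named in the methods called none of them, but it called only 13 of all tested probes, so this adds nothing. In the authors' normalized values 4 proteasome genes passed, and 1 proteasome gene did without control replicate 3 and 1 sterol gene without rapamycin replicate 2. The medians of the sterol, fatty acid and proteasome lists in HO15.19 cells were −0.16, −0.04 and −0.21, against −0.41, −0.52 and −0.34 in TGR-1 cells. However, 7, 3 and 12 of their measured members were named in the authors' TGR-1 table and 2, 0 and 5 in the HO15.19 table. Most were thus chosen for a change in TGR-1 cells. Of 585 probes named in the TGR-1 table only, 1 was called in HO15.19 cells, so neither the missing calls nor the medians show a weaker response. Short lists with few calls were NRF2 and glutathione genes (Akr1c19 and the aldehyde dehydrogenase Aldh3a1 higher, 2 of 16), p53 targets (the death receptor Fas higher, Sesn3 and Gtse1 lower, 3 of 8) and histones (the variants H2az1, −0.60, and H2ax lower, 2 of 5), and these counts were 1 to 4 with 1 HO15.19 array left out.

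Detection changed outright for 59 probes, 43 seen on all 3 rapamycin arrays and no control array and 16 the other way round. Since these probes passed the detection filter through the group where they are high, their direction was fixed by it, and the values are a description. Named ones were Phgdh, above, and 2 detected with rapamycin alone, the retinal S-antigen Sag (5.30, 5.73 and 5.45 with rapamycin and 4.74, 4.66 and 4.87 in control, at least 1.43-fold higher) and the zinc finger gene Zxdc (5.34, 5.58 and 5.25 with rapamycin and 4.71, 4.57 and 4.97 in control, at least 1.34-fold higher).

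Finally, the rapamycin change in HO15.19 cells was set against that in TGR-1 cells, gene by gene. Of the 293 features higher in HO15.19 cells 96 were also called higher in TGR-1 cells (32.8% of the HO15.19 and 35.0% of the 274 TGR-1 features), and of the 313 lower ones 52 were (16.6% of the HO15.19 and 33.1% of the 157 TGR-1 features). The 293 had a median change of 0.56 in HO15.19 cells and 0.33 in TGR-1 cells, where 276 were positive, and the 313 had −0.53 in HO15.19 cells and −0.18 in TGR-1 cells, where 246 were negative. Being called in a single line does not show a difference, and the test of the difference was passed by 11 of 10006 probes (0.11%; 0.637% of the named probes), where the change was higher for 2 and lower for 9 than in TGR-1 cells. This count was 0 without TGR-1 rapamycin replicate 3, 9 without HO15.19 rapamycin replicate 1 and between these without any other array. The largest was Kprp, a keratinocyte protein, with 6.58, 6.57 and 6.55 under rapamycin and 4.99, 5.17 and 5.60 in control in HO15.19 cells, a rise of 1.31. In TGR-1 cells Kprp was not detected on any array, so its difference of 1.31 rests on background there. H2ax fell by 0.37 in HO15.19 cells and rose by 0.68 in TGR-1 cells, a difference of −1.05 (adjusted p = 0.0109), and the chemokine Ccl2 likewise fell by 0.49 and rose by 0.58, although in HO15.19 cells the call of Ccl2 was lost without any 1 of 5 arrays and that of H2ax without any 1 of 6. Mitosis and replication genes made up 5 of the 9, with differences of −1.03 for Ncapd2, −0.84 for the kinesin Kif20a, −0.84 for the centromere protein Incenp, −0.98 for Mcm10 and −0.85 for Pold1 of DNA polymerase delta. For Kif20a the HO15.19 arrays were at 9.55, 9.49 and 9.46 with rapamycin and at 10.13, 10.15 and 10.17 in control, while the TGR-1 arrays averaged 10.18 ± 0.08 with rapamycin and 9.99 ± 0.05 in control (SD, n = 3 each). At an unadjusted p under 0.05, 41 of the 51 mitosis genes and 22 of the 27 replication genes had a lower change in HO15.19 cells, against 10.1% of all tested and 32.2% of the named probes in either direction. However, 50 of the 51 and 26 of the 27 were named in the HO15.19 table and 3 and 4 in the TGR-1 table, so nearly all were chosen for a change in HO15.19 cells. The methylenetetrahydrofolate dehydrogenase-like LOC684490 fell by 1.56 in HO15.19 cells and by 0.48 in TGR-1 cells (difference −1.08, adjusted p = 0.0122). LOC306428, defined as similar to a heat shock protein of the Hsp70 kind, rose by 0.58 and was at −0.41 in TGR-1 cells (difference 0.99).

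**Figure D5:**
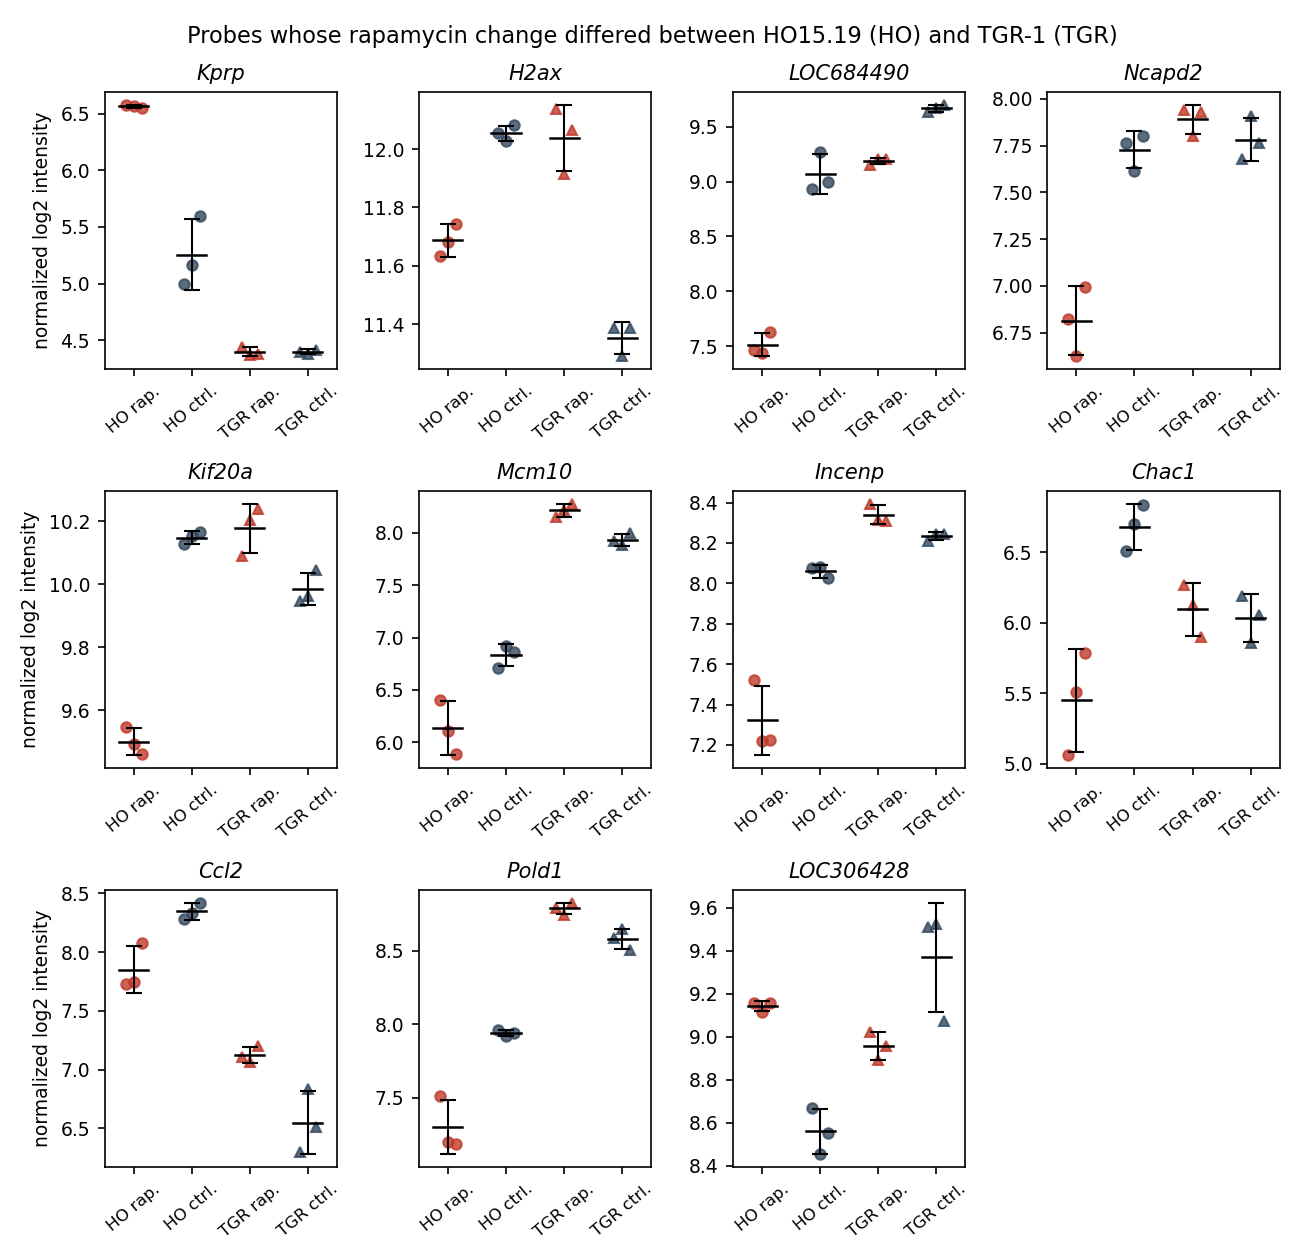
Normalized log2 intensity (vertical axes, a separate scale for each probe) on each array of the 11 probes whose rapamycin change differed between the lines, with HO15.19 cells (HO, circles) left of TGR-1 cells (TGR, triangles), rapamycin in red left of control in slate, and the mean and SD of 3 arrays in black. In H2ax and Ccl2 the rapamycin arrays lie below control in HO15.19 cells and above control in TGR-1 cells.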

How the data were processed

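RNA of HO15.19 and TGR-1 cells, with rapamycin or DMSO, was hybridised to Illumina RatRef-12 arrays, 3 per group. The authors deposited an average intensity per probe, exported from BeadStudio without normalization, and a detection p-value per probe and array. The sources used here do not say if BeadStudio subtracted a background. The authors' own normalized intensities served as an alternative. Their comparison tables, made in Partek 6.3, hold fold changes, group means and adjusted p-values, which were not used, and gave gene names only.

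In R 4.3.3 with limma 3.58.1, neqc (offset 16) corrected the background and quantile-normalized all 12 arrays on the log2 scale. A mean per group was fitted over 12 arrays with lmFit and eBayes, and tests were two-sided. A probe was called at an adjusted p under 0.05 (Benjamini-Hochberg over the 10006 tested), an unadjusted p of at most 0.01 and at least 1.2-fold. A signal undetected in a whole group is given as a bound, taken per array as the higher of the probe's value and the lowest signal of any detected probe. The fit was checked on simulated data, where 4 unchanged probes of 10006 were called. The simulation gave both lines the same spread, so it cannot show the effect of an unequal one. It also changed fewer probes than were called on the real arrays, which made its adjusted threshold stricter.

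Names were updated through Entrez identifiers (1551 probes) or accessions (2) in RefSeq GRCr8 and kept as listed for 181. Named genes were the 12 largest rises and falls without overlap, all probes differing between the lines, up to 8 members per list, genes named in the study and probes detected in a single group. A gene is given by its brightest probe. Aimp1, Aldoa, Atf4, Aurkb, Cdc25b, Cdk1, Cenpe, Ddit3, E2f1, Eef1e1, Espl1, Farsb, Kif23, Ncapg, Pck2, Rars1, Slc3a2 and Yars2 were given in addition, after their values were seen. Members, lists and the rule were chosen with earlier results of these data known, from general knowledge, and lists were not tested as sets. Alternatives covered the filter, background, normalization, variance model, test, threshold, a replicate block and each array left out. No chip position is named in the files, so no chip block was fitted. Values of some measured genes were left out of the text.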

Additional observations from a re-analysis of the deposited data

Results flagged for a closer look

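The results below stand out because the change with rapamycin differed between HO15.19 and TGR-1 cells in a test of the difference itself. Differences (HO15.19 minus TGR-1, log2) were 1.31 for Kprp, −1.05 for H2ax, −1.08 for LOC684490, −1.03 for Ncapd2, −0.84 for Kif20a, −0.98 for Mcm10, −0.84 for Incenp, −1.29 for Chac1, −1.07 for Ccl2, −0.85 for Pold1 and 0.99 for LOC306428, with adjusted p between 0.0109 and 0.0442 in limma. Kprp was not detected in TGR-1 cells.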

How the results depend on the processing

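Of the 140 called probes of named genes, 133 could be fitted under all 28 alternatives, 4 under 27 and 3 (Phgdh, Sag and Zxdc) under 24, since the filter dropped them in the rest. No change turned its direction in any of these, 83 kept their call under all they were fitted in except median centring over all probes and the t-test of the methods, and 51 lost it when at least 1 HO15.19 array was left out (between 22 and 44 for a single array). Centring each array on the median of all its probes, which left the array means of the tested probes 0.51 apart, gave 51 called features (18 higher and 33 lower, against 293 and 313 with quantile normalization), all 51 at least 1.5-fold, and 0 that differed between the lines in limma (256 at an unadjusted p under 0.05). Centring on the tested probes gave 375 called and 1 that differed. A fit of the 6 HO15.19 arrays alone called 237, the t-test of the methods 13 (9 at least 1.5-fold), and the threshold without the Benjamini-Hochberg condition 986, with 325 that differed. At least 1.5-fold were 105 without background correction and 136 in the authors' normalized values. The count that differed between the lines, 11, was 24 with detection on all 6 arrays, 26 with no filter, 71 without background correction, 7 with cyclic loess, 53 in the authors' normalized values, 44 with a variance trend and 31 with array weights. With 1 array left out, between 319 and 561 features were called, between 218 and 303 at least 1.5-fold, and between 0 and 9 differed. The lowest counts of called features came without HO15.19 control replicate 1 (332) or 2 (319) and rapamycin replicate 1 (403). Same-numbered HO15.19 arrays deviated together with correlations of 0.105, −0.0558 and 0.162, and rapamycin replicate 1 correlated best with control replicate 2 (0.243), so the numbers were not taken as pairs. With the replicate block 616 features were called, 262 of them at least 1.5-fold, and 6 differed between the lines. Dim probes near background have only a bound, and 62% of simulated 1.5-fold changes were called, with fewer probes changed than were called on the real arrays.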
